A study of Bos taurus with 12 samples.

Results

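Intergenic tiles near genes were taken from a study of blood DNA methylation in dairy cows. A tile is a window of 500 bases, and the authors' deposited table listed 1227 tiles that differed between 2 groups of cows. The 445 tiles described here (36.3% of the listed tiles) carried the authors' annotation Distal Intergenic and lay 100 kb or less from the nearest transcription start. Overlapping tiles merged into 360 regions, and no region mixed tiles of opposite direction. The other listed tiles were 387 intergenic tiles beyond 100 kb and 395 genic tiles, which lay in promoters, introns, exons or 3' untranslated regions.

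Whole blood was drawn from 12 cows kept under like conditions on a farm, before any cow was known to have the complications that later counted. MSG, the mastitis susceptible group, held 6 cows that were culled within 1 year of sampling for complications of mastitis, an inflammation of the udder that is mostly caused by bacteria. MRG, the mastitis resilient group, held 6 cows of similar age that stayed in the herd for that time. The labels named no treatment, breed, parity, batch or blood cell count. Each cow gave 1 sample, so spread between samples is spread between cows. Culling for mastitis also depends on herd decisions, so the groups describe an outcome on a farm and not an experimental infection.

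In mammals most CpG dinucleotides are methylated, and methylation tends to be low at active promoters and at enhancers, which are distant elements that raise the transcription of a gene. Many enhancers lie between genes, so intergenic windows of intermediate methylation are often examined as possible regulatory DNA. A level between none and full in blood can arise when some cells, or 1 of the 2 parental copies, are methylated and others are not. Whole blood mixes many cell types, and a change in the share of a cell type cannot be told apart from a change within cells. The nearest gene is a label of position and does not show that a tile acts on that gene. A genome of the build used by the authors (ARS-UCD1.2) was not used here, so tiles are given by position and without their bases.

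All 445 tiles had been selected by the authors for a difference between these same cows. In the authors' deposited table the smallest absolute difference among them was 25 percentage points and the largest q-value was 6e-09. Tests on the same cows therefore describe the listed tiles and are no independent evidence of a difference. Differences given below are between plain means over the cows of each group, unless called the authors'. In absolute size these were under 25 points in 90 of the 445 tiles, the smallest being 11.2 points. Percent methylation per cow is the deposited measure, and the read depth behind each value was not used, so each value's error was taken from the spread over the cows of a group. Of the 445 tiles, 342 had a value for every cow, and the other 103 lacked a value for at most 1 cow in a group.

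The tiles held mostly intermediate methylation. Over 5219 values of tile and cow, 62.9% lay between 20% and 80% methylation, 24.1% lay above 80% and 13.0% lay below 20%. A value of exactly 0 made up 6.17%, and 93 tiles had at least 1 cow at 0. Cows of the same group differed widely: the median range within a group was 47.4 points in MSG and 43.9 points in MRG. In 308 tiles (69.2%) the cows of at least 1 group spanned 50 points or more, against 66.9% of all listed tiles. In 3 tiles both groups spanned less than 20 points. The median SD between cows was 18.9 points in MSG and 17.8 points in MRG, against a median absolute difference between group means of 27.4 points.

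Direction was close to evenly split. Of the 360 regions, 194 had more methylation in MSG and 166 had less. The share with more was 53.9%, with a 95% Wilson interval of 48.7% to 59.0% that treats regions as independent and covers counting error only. For intergenic tiles beyond 100 kb the share was 58.4% of 322 regions, and for genic tiles it was 55.2% of 328 regions. Limma's test on percent methylation, two-sided and adjusted over all listed tiles by Benjamini-Hochberg, passed 319 of the 445 tiles at 0.05, 178 higher and 141 lower in MSG. That is 71.7% of them, beside 73.3% of all listed tiles, so the share was near the background. The smallest limma adjusted p of any listed tile was 0.0347, a value that many tiles shared, so it does not rank them. In single directions 41.6% of all listed tiles passed as higher and 31.6% as lower. The count was lower without any 1 of the cows. It was 166, 170, 140 and 165 without MSG replicates 1, 2, 3 and 6, and 164, 156, 208 and 161 without MRG replicates 1, 2, 3 and 5. With a cow left out 31.5% to 64.5% of the 445 tiles passed, beside 32.4% to 65.0% of all listed tiles.

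Averaged over the 445 tiles, the 6 MSG cows had a lowest mean of 53.2%, a median of 55.2% and a highest of 56.6%. The 6 MRG cows had a lowest mean of 51.4%, a median of 53.9% and a highest of 55.1%. The groups overlapped, and their means differed by 1.57 points. The difference was 2.70 points in tiles within 50 kb, 2.41 points in tiles with a value for every cow and -1.45 points in tiles with an authors' difference of 30 points or more, so its direction depended on which tiles were averaged. The tiles had been selected on the labels of these cows, so such averages are given as a description, with no test.

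The same averages over intergenic tiles beyond 100 kb ran from 56.7% to 59.0% in MSG and from 51.5% to 53.0% in MRG. The difference between the groups was thus 5.36 points there, with no overlap. Within each cow the mean over the near tiles was set against the mean over the distant ones. This contrast was -2.41 ± 1.25 points in MSG and 1.39 ± 1.75 points in MRG (SD, n = 6 each), a difference of -3.79 points. Tiles higher in MSG made up 53.5% of the near tiles and 59.9% of the distant tiles, and each mean rests on that mixture of tiles chosen on these cows. Against genic tiles the contrast differed between the groups by -1.34 points. No test is given for either contrast, since the selection fixes how many tiles of each direction enter a mean.

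**Figure D1:**
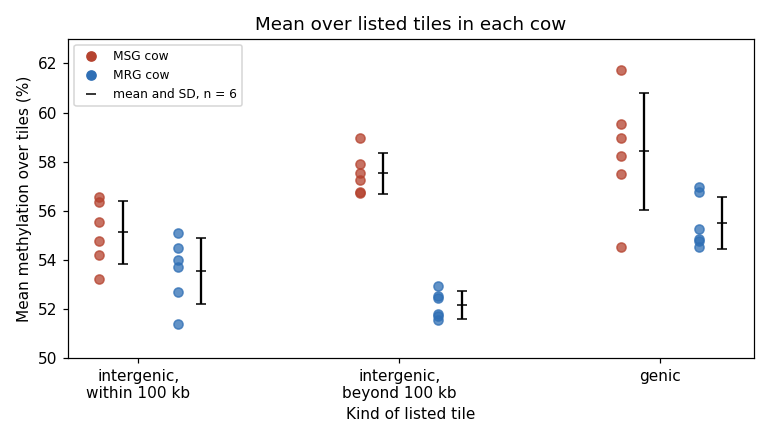
Mean methylation over listed tiles (y axis, percent) in each cow, for 3 kinds of tile (x axis), with the mean and SD of 6 cows per group. The groups overlap for intergenic tiles within 100 kb and are apart for those beyond 100 kb, where MSG cows start at 56.7% and MRG cows end at 53.0%.

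Tiles lay at a median of 32.1 kb from the nearest start, from 3.12 kb to 99.8 kb. The lower end follows from the authors' annotation, in which nearer tiles count as promoters. Upstream of the nearest start lay 297 tiles, and 148 lay past it in the direction of transcription. Of the upstream regions 50.2% of 239 were higher in MSG, and of the downstream regions 61.2% of 121. The median absolute difference was 27.8 points at 3 to 10 kb, 26.7 points at 10 to 20 kb, 27.8 points at 20 to 50 kb and 27.4 points at 50 to 100 kb. The authors' selection at 25 points keeps such medians close together, so they say nothing about distance. The tile just inside the limit, at 99.8 kb and without a gene symbol (chromosome 6, 3830251 to 3830750), had group means of 57.3% for MSG and 27.1% for MRG. The tile just outside, at 100.04 kb, overlaps it and had means of 63.3% and 34.3%. The next tiles on either side were one at 98.8 kb from LOC112443533 (48.3% and 77.5%) and one at 100.5 kb from IRX5 (55.5% and 29.6%).

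**Figure D2:**
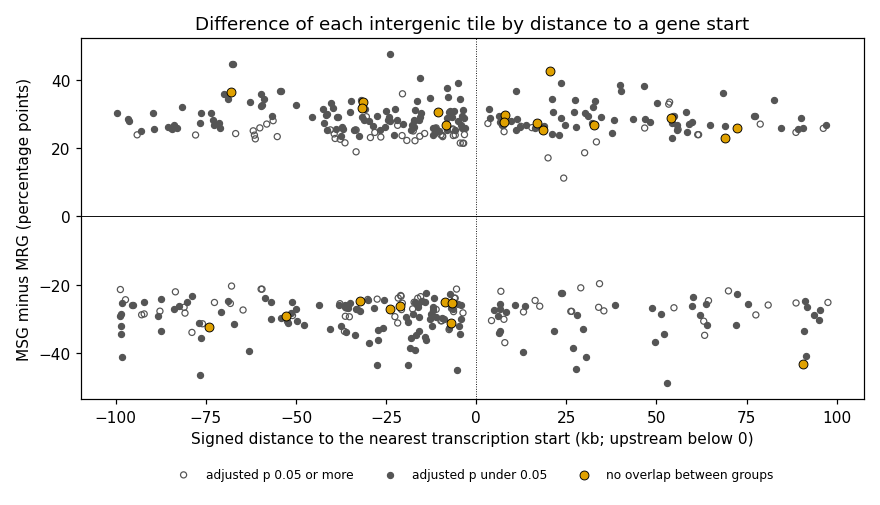
Difference MSG minus MRG in percentage points (y axis) of each of the 445 tiles against its signed distance to the nearest start in kb (x axis). Filled points passed limma's test at an adjusted p of 0.05, open points did not, and the 23 yellow points are tiles whose groups did not overlap. The empty band around 0 on the y axis follows from the authors' selection.

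Chromosome 1 held the most tiles, 67 in 57 regions, of which 26 were higher and 31 lower in MSG. Direction differed between chromosomes. On chromosome 28, 12 of 14 regions were lower in MSG, on chromosome 2, 23 of 30, and on chromosome 9, 16 of 22. On chromosome 5, 14 of 17 regions were higher in MSG, on chromosome 4, 11 of 13, on chromosome 10, 12 of 15, and on chromosome 8, 23 of 32. Regions of a chromosome are not independent when they lie close together, as described next, and no test was made of these counts.

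Neighbouring regions had related cow profiles, alike in most close pairs and opposed in some. For each region with a value in all cows (278 regions), each cow's deviation from its group mean was taken, which removes the difference between groups that chose the tiles. The size of Pearson's r between 2 regions over the 12 cows had a median of 0.885 for the 30 pairs less than 10 kb apart. It was 0.792 for 53 pairs at 10 to 100 kb, 0.500 for 92 pairs at 100 kb to 1 Mb, 0.251 for 2364 pairs further apart on a chromosome and 0.228 for 35964 pairs on different chromosomes. Pairs share cows, libraries and, when close, stretches of chromosome, so these values are a description.

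**Figure D3:**
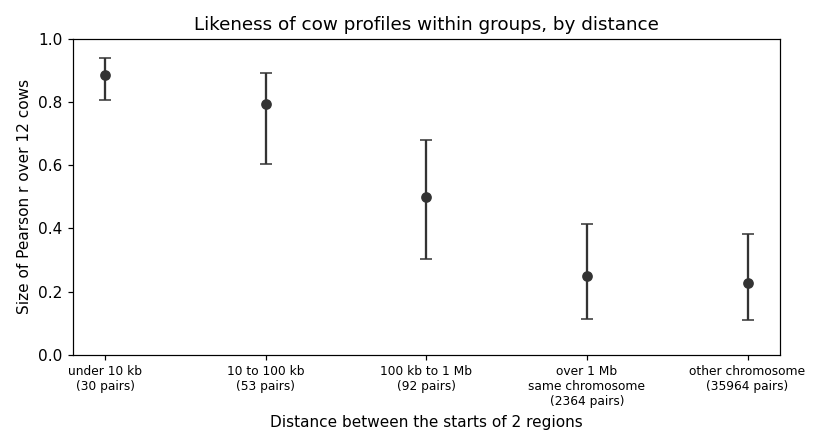
Size of Pearson's r between the cow profiles of 2 regions (y axis, over 12 cows, after removing group means) by the distance between the regions (x axis). Points are medians and bars run from the lower to the upper quartile, and the medians fall from 0.885 below 10 kb to 0.228 between chromosomes.

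The sign of r followed the direction of the regions in every close pair. Directions and profiles come from the same cows, on which the regions were selected, so this too is only a description. In 24 of the 30 pairs both regions had the same direction, and r was positive in all 24, from 0.541 to 0.960. In the other 6 pairs 1 region was higher and 1 lower in MSG, and r was negative in all 6, with a median of -0.900. The opposed pairs included 2 regions upstream of PPP2R3A, which encodes a regulatory subunit of protein phosphatase 2A, 5.25 kb apart with r = -0.939. Near MYO3B (4.5 kb, r = -0.236) and SCN3B (6.25 kb, r = -0.473) the opposition within groups was weak. In the 4 strongly opposed pairs, r between -0.974 and -0.875, a cow that was high for its group in 1 region was low for its group a few kb away.

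PPP2R3A had 3 regions upstream of its start. The region at 98.2 kb, built of 3 overlapping tiles (chromosome 1, 133448251 to 133449250), had a lowest value of 18.0%, a median of 22.6% and a highest of 61.4% in MSG, and 38.9%, 62.5% and 84.5% in MRG. A cow's value there is the mean of its tiles with a value. MRG replicate 4, the lowest of MRG, had a value only in the tile at 98.7 kb, and MSG replicate 4 had none at 98.5 kb. The tiles differed in level, with MSG means of 27.3%, 31.1% and 45.2%, so these values and r mix unlike tiles. The region at 93.0 kb (133443001 to 133443500) had 60.1%, 90.7% and 95.1% in MSG, and 30.9%, 60.6% and 91.7% in MRG. The groups overlapped in both regions. MSG replicates 2 and 3 were the high cows of MSG in the first, near 60%, and the low ones in the second, while the other 4 MSG cows were near 20% and near 90%. Their limma adjusted p values as merged regions were 0.0373 and 0.0470, with differences of -29.7 and 25 points. The region at 47.7 kb (133397751 to 133398250) stood at 26.2%, 34.8% and 57.5% in MSG and at 34.4%, 73.8% and 98.8% in MRG. Of the 5 single tiles, 1 kept its call in all 12 fits that left out a cow, and the tile at 98.7 kb did not pass (adjusted p = 0.0579, and 0.0360 without MRG replicate 4). None of the 5 passed the exact permutation test.

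SCN3B encodes a beta subunit of voltage-gated sodium channels and also had 3 upstream regions. In the middle one, at 11.8 kb (chromosome 15, 34266001 to 34267000, 3 tiles), MSG cows ran from 29.8% over a median of 41.4% to 50.7%, and MRG cows from 39.4% over 73.8% to 85.3%. All MRG cows but replicate 3 lay above every MSG cow. The difference was -28.5 points with a standard error of 9.24 (limma adjusted p = 0.0373). Of its single tiles, the one at 11.8 kb lost its limma call in 8 of the 12 fits that left out a cow. That tile did not pass the exact permutation test (adjusted p = 0.0524), while the tiles at 12.1 and 12.3 kb kept their calls in all 12 fits and passed it. The regions at 6.07 kb (34260251 to 34260750) and 18.1 kb (34272251 to 34272750) were higher in MSG, with medians of 68.8% against 43.5% and of 72.0% against 49.5%. At 6.07 kb 5 MSG cows spanned only 66.1% to 70.7%, while 5 MRG cows spanned 3.17% to 66.7%. At 18.1 kb MSG cows ran from 67.1% to 85.9% and MRG cows from 21.5% to 82.1%, and the groups overlapped in both regions. These 2 tiles passed limma's test (adjusted p = 0.0374 and 0.0448) but lost their calls in 5 and 10 of the 12 fits that left out a cow. Neither passed on the log2 odds scale or by the exact permutation test (adjusted p = 0.0530 and 0.0720).

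DLX2, a homeobox transcription factor of forebrain and jaw development, had 3 upstream regions, each lower in MSG. At 21.1 kb (chromosome 2, 24427001 to 24427500) the lowest, median and highest values were 31.1%, 60.7% and 61.2% in MSG and 61.8%, 79.0% and 94.1% in MRG. The groups did not overlap, although the highest MSG cow and the lowest MRG cow were less than 1 point apart. At 17.1 kb (24431001 to 24431500) the values were 30.3%, 55.2% and 62.5% in MSG and 53.4%, 83.0% and 85.9% in MRG. At 54.1 kb (24394001 to 24394500) they were 28.4%, 64.2% and 98.7% in MSG and 71.6%, 97.3% and 98.8% in MRG. MSG replicates 3 and 6 were the lowest 2 cows of MSG in each of the 3 regions, and MRG replicates 3 and 6 the lowest 2 of MRG. The differences were -26.4, -25.2 and -29.8 points with limma adjusted p values of 0.0348, 0.0377 and 0.0370. The first lost its call without MSG replicate 3 (0.0590), MSG replicate 6 (0.0570) or MRG replicate 5 (0.0539), and each of the other tiles lost it in 7 of the 12 fits that left out a cow. Those 2 tiles did not pass the exact permutation test (adjusted p = 0.0601 and 0.0541).

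SEL1L encodes an adaptor of the machinery that removes misfolded proteins from the endoplasmic reticulum. Its 3 regions lay 69.9 to 73.6 kb upstream (chromosome 10, 92893001 to 92897250) and were higher in MSG. In the first, MSG cows ran from 20.3% over a median of 62.9% to 90.2%, and MRG cows stayed between 23.9% and 31.0%. In the last the values were 31.2%, 56.0% and 85.4% in MSG and 24.3%, 28.0% and 37.6% in MRG. MSG replicate 5 lay below all MRG cows in the first region and within their values in the last, and the other 5 MSG cows lay above all MRG cows in both. The differences were 35.7 and 30.1 points with standard errors of 10.5 and 9.50 (limma adjusted p = 0.0347 each), and both kept their calls in all 12 fits that left out a cow. By the exact permutation test the first did not pass (adjusted p = 0.0524). The middle region (92894251 to 92895000) had 32.7%, 60.4% and 82.2% in MSG and 29.6%, 33.3% and 44.9% in MRG, and its 2 tiles lost their limma calls in 6 and 3 of the 12 fits.

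**Figure D4:**
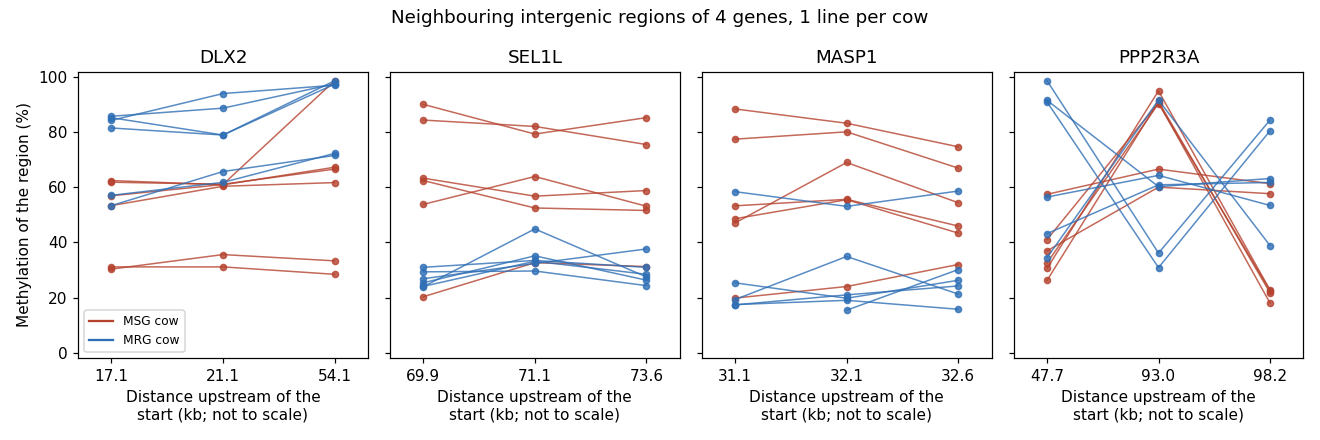
Methylation (y axis, percent) of the 3 regions upstream of DLX2, SEL1L, MASP1 and PPP2R3A, ordered by distance to the start in kb (x axis, not to scale), with 1 line per cow. Lines mostly run side by side for DLX2, SEL1L and MASP1, although some cross, such as that of MSG replicate 5 at DLX2. Between the last 2 regions of PPP2R3A, 93.0 and 98.2 kb upstream, the lines cross.

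Immune, metabolic and blood cell genes were examined through 15 lists holding 524 genes. Only 5 of these genes were the nearest gene of a tile, with 7 tiles in 7 regions, 5 higher and 2 lower in MSG. All 7 passed limma's test, beside 73.3% of all listed tiles, and in none were the groups free of overlap. No tile lay nearest to a listed gene of innate sensing and NF-kappaB signalling, interferon and JAK-STAT signalling, cytokines and chemokines with their receptors, antigen presentation, DNA methylation, methionine metabolism or the mammary gland. None lay nearest to a marker gene of T and NK cells, B cells, monocytes or granulocytes. The tables list differing positions only, so the levels of such markers, and with them the cell make-up of each sample, were not tested.

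MASP1, a serine protease that starts the lectin pathway of complement, an early defence against bacteria in blood, was the list gene with the most tiles. Its 3 regions lay 31.1 to 32.6 kb upstream of the start (chromosome 1, 79973251 to 79975250). In the middle tile (79973751 to 79974250) the lowest, median and highest values were 24.0%, 62.4% and 83.3% in MSG and 15.4%, 20.4% and 53.1% in MRG. In all 3 tiles MSG replicate 4 was the lowest MSG cow and MRG replicate 4 the highest MRG cow. The middle difference was 34.1 points with a standard error of 10.7 (limma adjusted p = 0.0347) and kept its call in all 12 fits that left out a cow. By the exact permutation test it did not pass (adjusted p = 0.0507), nor did the outer tiles (0.0637 and 0.0960). The outer tiles differed by 23.6 and 28.3 points (adjusted p = 0.0439 and 0.0469), and each lost its call in 10 of those fits. Neither outer tile passed limma's test on the log2 odds scale (adjusted p = 0.0549 and 0.0646).

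The other 4 list genes had 1 tile each. MYB encodes a transcription factor of blood progenitor cells, and the tile 75.3 kb past its start (chromosome 9, 73297751 to 73298250) had 34.9%, 40.4% and 58.5% in MSG and 49.1%, 68.5% and 81.0% in MRG. ETV6 encodes a repressor needed in blood stem cells, and the tile 85.4 kb upstream (chromosome 5, 98310751 to 98311250) had 43.6%, 57.0% and 75.2% in MSG and 17.6%, 25.2% and 52.8% in MRG. In both tiles the groups overlapped in a few cows. DOCK2 activates Rac in migrating leukocytes, and the tile 38.2 kb upstream (chromosome 20, 1523751 to 1524250) had 38.2%, 52.5% and 69.9% in MSG and, in 5 MRG cows, 65.4%, 69.8% and 96.7%. GYPC encodes glycophorin C of the red cell membrane, and the tile 58.4 kb past its start (chromosome 2, 78943751 to 78944250) had 57.7%, 88.3% and 91.1% in MSG and 28.6%, 56.2% and 93.4% in MRG. The limma adjusted p values were 0.0347 for MYB, 0.0350 for ETV6, 0.0384 for DOCK2 and 0.0490 for GYPC. With a cow left out the highest was 0.0522, 0.0579, 0.0803 and 0.105 in that order. By the exact permutation test ETV6 (0.0524), DOCK2 (0.0581) and GYPC (0.0926) did not pass.

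In 23 tiles (5.17%) all cows of 1 group lay above all cows of the other, 14 higher and 9 lower in MSG. Of all listed tiles 6.03% did so, 3.67% higher and 2.36% lower, so the near tiles did not exceed the background. The tile 7 kb upstream of MTMR9, a catalytically inactive member of the myotubularin phosphatases (chromosome 8, 8071001 to 8071500), had values of 19.0%, 27.9%, 24.2%, 28.8% and 22.7% in MSG replicates 1, 2, 3, 4 and 6. Its MRG cows ran from 46.6% over a median of 56.8% to 64.6%. This was among the tightest separations, with SDs of 3.97 and 6.04 points, a difference of -31.2 points and a standard error of 8.46 (limma adjusted p = 0.0347). An overlapping tile (8070751 to 8071250) was as tight, from 32.3% to 40.5% in MSG and from 54.5% to 67.1% in MRG. Another MTMR9 tile, 19.0 kb upstream (8083001 to 8083500), was also lower in MSG but not free of overlap, since MSG replicate 5 stood at 73.1% and the other 4 MSG cows with a value at 21.3% or less.

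The other symbol-bearing genes nearest to such tiles with lower values in MSG were DLX2, FTH1 and LOC107131666. FTH1 encodes the heavy chain of ferritin, which stores iron, and the tile 52.7 kb upstream (chromosome 29, 40533001 to 40533500) ran from 40.0% to 74.5% in 5 MSG cows and from 87.7% to 98.7% in 5 MRG cows. Its limma adjusted p was 0.0347, and 0.0506 or 0.0589 without MSG replicate 1 or 3. MRG replicate 3, which had no tile value there, stood at 0% at 2 listed sites of the tile (40533081 and 40533154), against the direction of its group. The tile 32.2 kb upstream of LOC107131666, an uncharacterised locus (chromosome 22, 22554501 to 22555000), ran from 25.9% to 85.7% in MSG and from 87.4% to 94.0% in MRG. It passed at 0.0393 and lost its call in 10 of the 12 fits that left out a cow. Of the tiles with no symbol the largest difference was -43.2 points on chromosome 1 (136431001 to 136431500), with 24.7% to 35.4% in 5 MSG cows and 50% to 86.5% in 5 MRG cows. The 2 cows without a tile value went against their groups at listed sites of the tile: MSG replicate 1 stood at 66.7% to 85.7% and MRG replicate 3 at 0% at 3 sites (136431256, 136431420 and 136431421). The absence of overlap thus rests on their missing values.

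Of the tiles higher in MSG without overlap, the tile 20.3 kb past the start of LOC112447179, a U6 spliceosomal RNA gene (chromosome 6, 2751751 to 2752250), differed by 42.5 points with a standard error of 9.26. Its MSG cows had 52.9%, 64.9% and 86.7%, and its MRG cows had 16.9%, 24.3% and 42.6%. The tile 68.0 kb upstream of LOC505199, a ribosomal protein L9 pseudogene (chromosome 10, 38902001 to 38902500), was narrow in MSG, from 82.5% to 89.2%. Its MRG cows lay between 36.7% and 48.8%, except replicate 5 at 81.0%. The tile 10.5 kb upstream of MYO3B, a class III myosin gene (chromosome 2, 26221751 to 26222250), ran from 79.7% to 94.6% in MSG and from 29.4% to 75.8% in MRG. The tile 7.62 kb past the start of the microRNA gene MIR582 (chromosome 20, 19592001 to 19592500) ran from 70.8% to 94.9% in MSG, while 5 MRG cows lay between 48.4% and 51.2% and replicate 1 at 68.2%. These 4 tiles passed limma's test at an adjusted p of 0.0347 and in all 12 fits that left out a cow. Their highest adjusted p in those fits was 0.0482. MYO3B had 3 upstream regions. Its 2 overlapping tiles at 6.05 and 6.30 kb were lower in MSG, with differences of -24.0 and -27.9 points. Neither passed limma's test (adjusted p = 0.0965 and 0.0580). The MYO3B tile at 30.8 kb was 31.4 points higher in MSG (limma adjusted p = 0.0347). It did not pass the exact permutation test (adjusted p = 0.0541).

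Separations near 2 further spliceosomal RNA genes lost their calls in some fits. The tile 54.0 kb past the start of LOC112449427, another U6 gene (chromosome 13, 69183001 to 69183500), had a median of 31.4% in MSG and 17.4% in MRG, and only MSG replicates 2 and 5 lay far above, at 80% and 84.3%. The lowest MSG cow, at 23.1%, and the highest MRG cow, at 22.4%, nearly met. At its 3 listed sites MSG replicates 1, 3, 4 and 6 stood at 0% wherever they had a value, as did every MRG cow. The tile passed at 0.0377 and lost its call in 7 of the 12 fits that left out a cow. The tile on chromosome X (42833751 to 42834250), 16.8 kb past the start of a U4 spliceosomal RNA gene (LOC112445283), ran from 49.3% to 82.1% in MSG and from 24.4% to 43.2% in 5 MRG cows. It passed at 0.0347, and at 0.0544 it did not without MSG replicate 3.

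**Figure D5:**
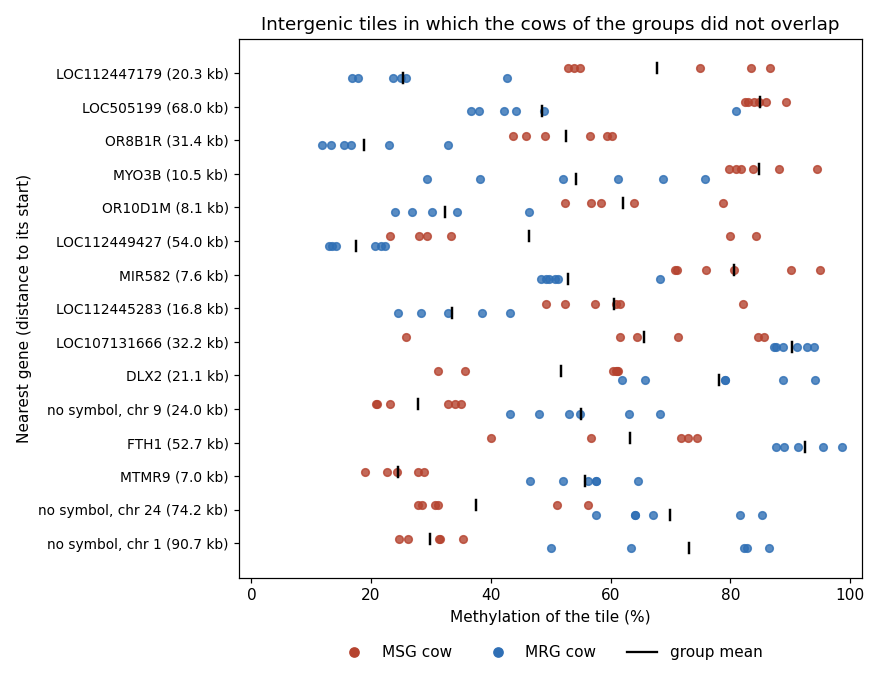
Methylation of single cows (x axis, percent) at 15 tiles in which the groups did not overlap, labelled by the nearest gene and the distance to its start (y axis), with black bars for group means. MTMR9 shows narrow groups far apart, and in LOC505199 and MIR582 1 MRG cow each stands near the MSG cows, at 81.0% and 68.2%.

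Olfactory receptor genes, a large family that encodes odour receptors and sits in tandem arrays, were the nearest gene of 8 tiles in 5 regions, 4 higher and 1 lower in MSG. On chromosome 29 a run of 4 regions was higher in MSG. The first, 23.9 kb upstream of TMEM225 (27220001 to 27220750), had 0%, 44.5% and 50.6% in MSG and 0%, 0% and 40.9% in MRG. The next, 6.42 kb past the start of OR8D6 (27312751 to 27313500), had 3.09%, 42.7% and 49.4% in MSG and 2.65%, 2.88% and 34.4% in MRG. In both, MSG replicate 6 was low with the MRG cows and MRG replicate 3 was high with the MSG cows. The 2 regions of OR8B1R, 12.1 kb past its start and 31.4 kb upstream (27319001 to 27319500 and 27363001 to 27363750), had medians of 49.5% against 20.9% and of 46.4% against 12%, and in the second the groups did not overlap. On chromosome 9 the tile 8.07 kb past the start of OR10D1M (104384251 to 104384750) ran from 52.4% to 78.7% in 5 MSG cows and from 23.9% to 46.3% in 5 MRG cows (limma adjusted p = 0.0347, and 0.0520 without MSG replicate 2).

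Other gene families were few among the nearest genes. There were 7 tiles of solute carrier genes, of which 3 passed limma's test, 8 of microRNA genes (4 passed), 3 of cadherin family genes (3 passed) and 1 of a collagen gene, which passed, beside 73.3% of all listed tiles. Small spliceosomal RNA genes, which are scattered through the genome in many copies, were nearest to 29 tiles in 23 regions, 11 higher and 12 lower in MSG. No tile was nearest to a zinc finger protein gene named ZNF or ZFP or to a potassium channel gene. A symbol was lacking for 152 tiles. The 445 tiles had 287 nearest genes, and 54 of these had 2 or more regions, all of 1 direction in 43.

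Among tiles whose nearest gene had a symbol, the 4 nearest to a start in each direction were examined. Of these 8 tiles 2 passed the test, both near PLA2G2F, beside 73.3% of all listed tiles and 66.7% of the tiles at 3 to 10 kb. Closest with a higher value in MSG were the tiles at 3.23 kb from LOC782740, a ribosomal protein pseudogene (adjusted p = 0.0694), 3.28 kb from RDH13, a retinol dehydrogenase gene (0.0979), and 3.49 and 3.74 kb from NAV2, a neuron navigator gene (0.200 each, by limma). MSG cows near NAV2 ran from 0% over 52.4% to 89.3% and MRG cows from 0% over 21.1% to 89.6%, so both groups covered nearly the same span. The 2 NAV2 tiles had identical values in every cow, as did the tiles of 14 of the 78 regions built of several tiles. Closest with a lower value were tiles at 3.68 kb from MIR2284AA-4 (0.0747), at 4.23 kb from LOC514181 (0.0597) and at 4.29 and 4.54 kb from PLA2G2F, a secreted phospholipase A2 gene (0.0463 and 0.0347). At 4.54 kb from PLA2G2F (chromosome 2, 132514001 to 132514500) the values were 18.9%, 23.5% and 58.4% in MSG and 22.6%, 73.2% and 93.1% in MRG, with MRG replicate 1 as low as the low MSG cows. By the exact permutation test neither PLA2G2F tile passed (adjusted p = 0.103 and 0.0627).

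Regions built of several tiles lay also near LOC112443345, with 3 tiles, and near CTTNBP2, with 2 that had identical values in every cow. At the middle tile 91.5 kb past the start of LOC112443345, a U1 spliceosomal RNA gene (chromosome 21, 62183251 to 62183750) every MSG cow was at 0%, and the MRG cows had 39.4%, 34.4%, 35.7%, 0%, 84.1% and 51.2% in order of replicate. The difference was -40.8 points with a standard error of 11 (limma adjusted p = 0.0347), and it passed in all 12 fits that left out a cow but not by the exact permutation test (adjusted p = 0.0524). The other 2 tiles of the region lost their limma calls in 6 and 5 of the 12 fits. Near CTTNBP2, which encodes a cortactin-binding protein of neurons, the tile 67.8 kb upstream (chromosome 4, 50331501 to 50332000) was at 0% in all 5 MRG cows with a value and in MSG replicates 4 and 6, and at 38.0% to 83.8% in the other 4 MSG cows. It passed at an adjusted p of 0.0347, and at 0.0513 it did not without MSG replicate 3, nor by the exact permutation test (0.0872).

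Some nearest genes with roles in immunity or milk fell outside the lists, and they are named here after their values were seen. For their tiles the fits that left out a cow and the exact permutation test are not given. Their limma results therefore lack the checks shown for the tiles named by rule. LPO encodes lactoperoxidase, an antibacterial enzyme of milk, and its upstream tiles at 7.42 and 17.2 kb (chromosome 19, 9195001 to 9195500 and 9185251 to 9185750) had medians of 90.1% against 53.3% and of 84.5% against 55.0% (MSG against MRG, limma adjusted p = 0.0350 and 0.0347). SEMA4D encodes a semaphorin found on T cells, and its tiles at 3.92 and 8.42 kb upstream (chromosome 8, 88622751 to 88623250 and 88618251 to 88618750) stood at 74.1% ± 25.3 against 44.9% ± 22.5 and at 66.2% ± 8.78 against 39.3% ± 12 (SD, n = 6 each). Groups did not overlap in the latter. CD163L1, a scavenger receptor gene, stood at 64.6% ± 21.8 in MSG and 36.5% ± 18.7 in MRG at 15.8 kb upstream (adjusted p = 0.0392). Tiles near the arginase gene ARG1 (65.5% against 89.9%), the fatty acid receptor gene CD36 (67.1% against 43.6%), the inflammation regulator gene NLRP12 (40.7% against 17.6%) and the iron exporter gene SLC40A1 (29.2% against 7.38%) did not pass, with adjusted p values of 0.0692, 0.0829, 0.0588 and 0.0934.

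Single CpG sites listed by the authors gave a finer view of the same reads. At least 1 listed site lay in 433 of the 445 tiles, with a median of 4 per tile and at most 16, counting the strands of a CpG apart. In all 433 tiles every listed site had the direction of its tile, which describes 2 tables made from the same reads. In the MTMR9 tile 4 listed sites between 8071120 and 8071239 had group means of 0% in MSG and of 40.6% to 49.3% in MRG, while the means of the whole tile were 24.5% and 55.7%. In the OR8B1R tile 5 listed sites had means of 34.7% to 44.0% in MSG and of 0% to 5.56% in MRG, and in the MIR582 tile 5 sites had means of 55.7% to 69.0% and of 5.00% to 11.7%. Listed sites were themselves chosen for their difference, so such means are the extremes of a tile.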

How the data were processed

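Unmodified cytosines were deaminated by APOBEC3A and read as thymines, whereas 5mC and 5hmC, shielded beforehand by enzymes, both read as methylated, per the labels' protocols. A thymine in a cow's own genome therefore also lowers the value. Per the submitters' processing notes, fastp 0.23.1, Bismark, DRAGEN, ChIPseeker 1.32.1 and the build ARS-UCD1.2 were used, with no role or order given. The authors deposited percent methylation per cow for tiles and for CpG sites, with a difference, a p-value and a q-value of their own, per the file headers. The differential test behind these is not given in the sources used here. A further 36 columns of read counts carried no cow's name and were not used, so depth is unknown here and the test foreseen for percent values was applied.

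Tiles were selected by annotation and distance, and overlapping tiles (at least 1 shared base, same kind and direction) were merged. Limma 3.58.1 in R 4.3.3 was fitted to percent methylation over all 1227 tiles, MSG against MRG, with no covariate, two-sided, missing values left out and Benjamini-Hochberg adjustment over all tiles. The code was tested on simulated data. The exact permutation test per tile ran over all regroupings of the cows with a value, 924 with all 12, for which the smallest p is 0.00216. Averages per cow are given without the permutation p foreseen, since the tiles were selected on these cows. Replicate numbers only name cows. Alternatives were the exact permutation test per tile, a log2 odds scale, a threshold of 0.01, tiles with all cows, merged regions, a 50 kb limit, tiles with no cow at 0 and leaving out each cow.

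Members, gene lists and rules were chosen with earlier results of these data known. The named tiles were, among those with a symbol, up to 8 non-overlapping tiles with the largest difference in each direction and 1 per gene, the 5 regions of most tiles (ties by difference), the 4 tiles nearest to a start in each direction, genes with 3 or more regions, genes of the lists and tiles next to the limit, plus 3 non-overlapping tiles without a symbol. A nearest gene that the rule picked is not reported here.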

Additional observations from a re-analysis of the deposited data

Results flagged for a closer look

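Among the named tiles and the averages per cow, 115 groups of 5 or 6 cows were examined for a cow far from the others by Dixon's ratio, and 11 were singled out. Chance alone singles out about 1 in 20 groups. In each case the highest or lowest cow lay apart from the rest of its group.

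In MRG, the cow standing apart was high at the tile near LOC112447179 (42.6%, next cow 25.8%), at LOC505199 (81.0%, next 48.8%) and at MIR582 (68.2%, next 51.2%). It was also high at a SEL1L tile 71.1 kb upstream (47.6%, next 38.8%), at the outer MASP1 tiles (58.7%, next 30.2%, and 58.5%, next 25.3%) and at the tile just inside the distance limit on chromosome 6 (51.8%, next 28.2%).

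In MRG the cow standing apart was low at an SCN3B tile 11.8 kb upstream (46.9%, next 75.6%) and at both overlapping MYO3B tiles (36.9%, next 74.1%, and 49.3%, next 86.7%). In MSG 1 cow was high at the MYB tile (58.5%, next 41.6%). Overlapping or neighbouring tiles share cows and reads, so these are fewer than 11 separate cases.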

How the results depend on the processing

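No paired analysis was possible because the replicate numbers 1 to 6 were given in accession order, only name cows and pair none. The count of 319 tiles past limma's test was 62 (13.9%, beside 17.4% of all listed tiles) with the exact permutation test. Within 50 kb, where fewer tiles were counted, it was 210 of 292 (71.9%, beside 73.3% of all listed tiles). On the log2 odds scale it was 224 (50.3%, beside 50.6% of all listed tiles). For tiles with no cow at 0 limma was fitted and adjusted anew on such tiles alone. In that fit 331 of 352 near tiles passed (94.0%, beside 93.3% of all such listed tiles), which is not a part of the 319. At a threshold of 0.01 the main limma fit passed 0 of the listed tiles. At an unadjusted p under 0.05 it passed 376 of the 445, beside 1025 of all 1227. The count of near tiles past limma's test lay between 140 and 287 with a cow left out. Of all listed tiles 32.4% to 65.0% then passed, and the cause was not tested. Tiles without overlap numbered 29 to 46 with a cow left out, since fewer cows must be separated, beside 7.66% to 11.1% of all listed tiles. The mean difference of 1.57 points was 1.5 by medians, 2.70 within 50 kb, 1.72 with no cow at 0 and 2.41 in tiles with all cows. With an authors' difference of 30 points or more it reversed to -1.45, and the cause was not tested. With a cow left out it ran from 1.13 to 1.94. The contrast with intergenic tiles beyond 100 kb ran from -6.32 to -2.65 points in the settings run. Of 47 named tiles that passed, 16 passed in all 12 fits that left out a cow. Over the 56 named tiles the log2 odds scale ended 8 calls and the exact permutation test 27. The log2 odds scale ended those of the outer MASP1 tiles and of the SCN3B tiles at 6.07 and 18.1 kb. It also ended those of DLX2 at 54.1 kb, PPP2R3A at 93.0 kb, PLA2G2F at 4.29 kb and GYPC. Depth was not used, so its limits are unknown.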
